A study of Mus musculus with 6 samples.

Results

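Complement components and regulators were followed as 8 genes, C3, C4b, Cfb, C2, C1s1, C1ra, Serping1 and Cfp, chosen by name from the 29781 genes listed in any library. All 8 were listed in the files. The data are single-cell RNA-seq libraries of orthotopic pancreatic tumours from 6 C57BL/6J mice, 1 library per mouse. KPC cells, a line of mouse pancreatic cancer, formed the tumours, and every mouse carries the genotype label wild-type. After random allocation, 3 mice received IgG and 3 received #44-anti-mVSIG4, an antibody against VSIG4, a receptor of macrophages for fragments of C3. Doses, treatment times, the isotype of the IgG and the age and sex of the mice are not in the labels, and tumours were taken 11 days after inoculation in both groups. All tumours came from the same cell line and all libraries from treated mice, and no tumour without antibody and no healthy pancreas was analysed here.

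Complement is a cascade of plasma proteins that marks and lyses targets and attracts leukocytes. The liver makes most of the circulating protein, and stromal and myeloid cells of inflamed tissue also make components. In the classical pathway the proteases C1r and C1s are bound to C1q. C1s cuts C4 and C2, whose fragments form an enzyme that cuts C3, while C1 inhibitor blocks both proteases. In the alternative pathway factor B binds a C3 fragment to form another C3-cutting enzyme, which properdin stabilises. The measurements here are of RNA, so secretion and cleavage of the proteins were not seen.

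The 250 bases before the start sites of C3, C1ra, C1s1 and Cfp are shown because only these of the 8 genes had such a window. The RNA of the first 3 was highest in fibroblasts, while that of Cfp was highest in myeloid cells. The sequences are from RefSeq on GRCm38.p6 and are printed 5′ to 3′ on the gene's strand. The table used here has such a window for 4 of the 8 genes. For C1s1 it has 2 overlapping windows, of which the one farther upstream is shown, and the other holds 1 of the matches. Capitals mark matches to TTNNGNAA, the letters of a C/EBP-type site, searched on both strands. C/EBP proteins are factors of the acute-phase response.
C3 (minus strand, chr17:57228137-57228386): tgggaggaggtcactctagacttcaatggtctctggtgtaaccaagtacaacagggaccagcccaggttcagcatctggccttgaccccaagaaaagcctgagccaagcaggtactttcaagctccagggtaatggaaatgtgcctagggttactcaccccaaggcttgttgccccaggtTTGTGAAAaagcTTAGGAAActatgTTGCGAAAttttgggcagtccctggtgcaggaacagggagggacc
C1s1 (minus strand, chr6:124542360-124542609): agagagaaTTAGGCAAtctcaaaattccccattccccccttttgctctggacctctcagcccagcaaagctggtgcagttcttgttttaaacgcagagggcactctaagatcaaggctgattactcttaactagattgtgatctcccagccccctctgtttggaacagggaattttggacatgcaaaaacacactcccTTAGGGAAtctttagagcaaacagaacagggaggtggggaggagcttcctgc
C1ra (plus strand, chr6:124512371-124512620): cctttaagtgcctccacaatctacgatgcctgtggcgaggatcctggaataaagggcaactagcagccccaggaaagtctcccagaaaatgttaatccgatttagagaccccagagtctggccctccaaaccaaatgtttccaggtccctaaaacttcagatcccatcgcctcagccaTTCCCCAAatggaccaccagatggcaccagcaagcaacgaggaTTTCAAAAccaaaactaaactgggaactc
Cfp (minus strand, chrX:20931556-20931805): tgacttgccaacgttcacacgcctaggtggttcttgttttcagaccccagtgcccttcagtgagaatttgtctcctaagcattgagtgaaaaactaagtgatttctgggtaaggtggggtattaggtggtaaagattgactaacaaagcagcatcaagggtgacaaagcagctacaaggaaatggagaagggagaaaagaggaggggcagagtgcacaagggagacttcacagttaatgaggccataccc
The C3 window holds 3 matches, and the windows of C1s1 and C1ra hold 2 each. No match lies in the Cfp window. The C3 matches lie within 70 bases of the start, and 1 of the 3 reads as a match on both strands. Of 32851 upstream windows of the same length, 36.8% hold at least 1 match, 10.9% at least 2 and 2.61% at least 3. The 4 windows hold no match, on either strand, to GAAA, any 2 bases, GAAA, the letters of an interferon-stimulated response element (in 2.98% of all windows), to TTCNNNGAA, the letters of a STAT site (7.02%), or to GGGA, any 2 bases, TTCC, those of an NF-kB site (1.21%). C1ra and C1s1 lie on the same chromosome.

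The libraries held 26606234 to 47221033 UMIs (counts of distinct RNA molecules), and 47603 of 47794 barcodes were kept, 24856 from IgG and 22747 from anti-VSIG4 tumours. Libraries shared 11691 cell names, which are serial numbers, and no 2 cells had identical counts. Cells fell into 27 clusters, named from markers and built without any complement gene, so that a name means cells like that type. Fibroblasts made up 903 cells, 1.90% of cells and 3.86% of UMIs, with 54 to 230 cells per library, and the other main classes were 2660 tumour/epithelial, 11375 monocyte/macrophage and 454 endothelial cells. All 8 fibroblast markers fixed for naming, Col1a1 among them, were raised in the fibroblast cluster. Libraries were of 2 kinds. IgG 2, IgG 3 and anti-VSIG4 3 held 16.2%, 40.6% and 5.06% of cells in clusters rich in RNA of long genes, as nuclei are, and the other 3 held 0.201% to 0.349%. Levels are given as CPM, counts per 1000000 UMIs of that class in that library. Errors on means are SDs, over 6 libraries or over 3 per group. The error after a log2 change is an approximate standard error from edgeR. The labels do not say more of how the mice were kept than that they were allocated at random, and p-values measure the spread between these 6 mice.

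Among the 10 classes with at least 20 cells in every library, fibroblasts had the highest level of 7 of the 8 genes in 6 of 6 libraries. Cfp, which encodes properdin, was highest in type 2 conventional dendritic cells (cDC2) and macrophages. For the classical pathway proteases, C1s1 averaged 178 ± 43.4 CPM in fibroblasts and C1ra 157 ± 53.5 CPM. C1s1 was 7.06 ± 4.06 CPM in endothelial cells, the next class, a log2 difference of 4.61 ± 0.93, and was between 0.738 and 2.78 CPM elsewhere. C1ra was 13.8 ± 2.23 CPM in macrophages, next after fibroblasts by a log2 difference of 3.35 ± 0.46, and 6.22 ± 1.83 CPM in tumour cells. Serping1, which encodes C1 inhibitor, averaged 946 ± 229 CPM in fibroblasts and 72.5 ± 29.4 CPM in endothelial cells, a log2 difference of 3.76 ± 0.74. Endothelial Serping1 was in turn above every other class in 6 of 6 libraries, by a log2 difference of 2.75 ± 0.54 over plasma cells.

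C4b, the target that C1s cuts, was 167 ± 94.1 CPM in fibroblasts and 65.3 ± 29.3 CPM in macrophages, a log2 difference of 1.24 ± 0.53. It was 12.3 ± 6.49 CPM in tumour cells and 5.26 CPM or less on average in the other classes. C2, which supplies the protease part of the classical C3-cutting enzyme, was 117 ± 17.5 CPM in fibroblasts, and no order could be read below that. Tumour, endothelial, plasma, macrophage and T cells followed at 22.1 ± 12, 21.6 ± 15.6, 21.1, 14.4 ± 6.14 and 14.2 CPM, with each neighbour higher in 2 to 4 of 6 libraries. C3, the component on which the pathways meet, was 1901 ± 724 CPM in fibroblasts, 276 ± 60.7 CPM in macrophages, 192 ± 67.4 CPM in neutrophils and 143 ± 46.7 CPM in tumour cells. The log2 difference between fibroblasts and macrophages was 2.72 ± 0.59.

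Of the alternative pathway, Cfb was 557 ± 201 CPM in fibroblasts, 221 ± 41.9 CPM in macrophages, 112 ± 19.4 CPM in tumour cells and 64.7 ± 30.3 CPM in endothelial cells. These 4 classes kept that order in 6 of 6 libraries. Cfp was 601 ± 85.7 CPM in cDC2 and 593 ± 98.2 CPM in macrophages, a log2 difference of 0.02 ± 0.10 with cDC2 higher in 3 of 6 libraries. Neutrophils followed at 149 ± 40.8 CPM, below macrophages in 6 of 6 libraries by a log2 difference of 2.02 ± 0.35, and fibroblasts held 40.6 ± 21.5 CPM. An exact sign-flip test was run on 72 pairs of neighbouring classes, and its smallest possible p with 6 libraries is 0.03125. That p gave 0.132 after Benjamini-Hochberg adjustment, so no pair could pass, and the order rests on the count of libraries and the spread.

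**Figure D1:**
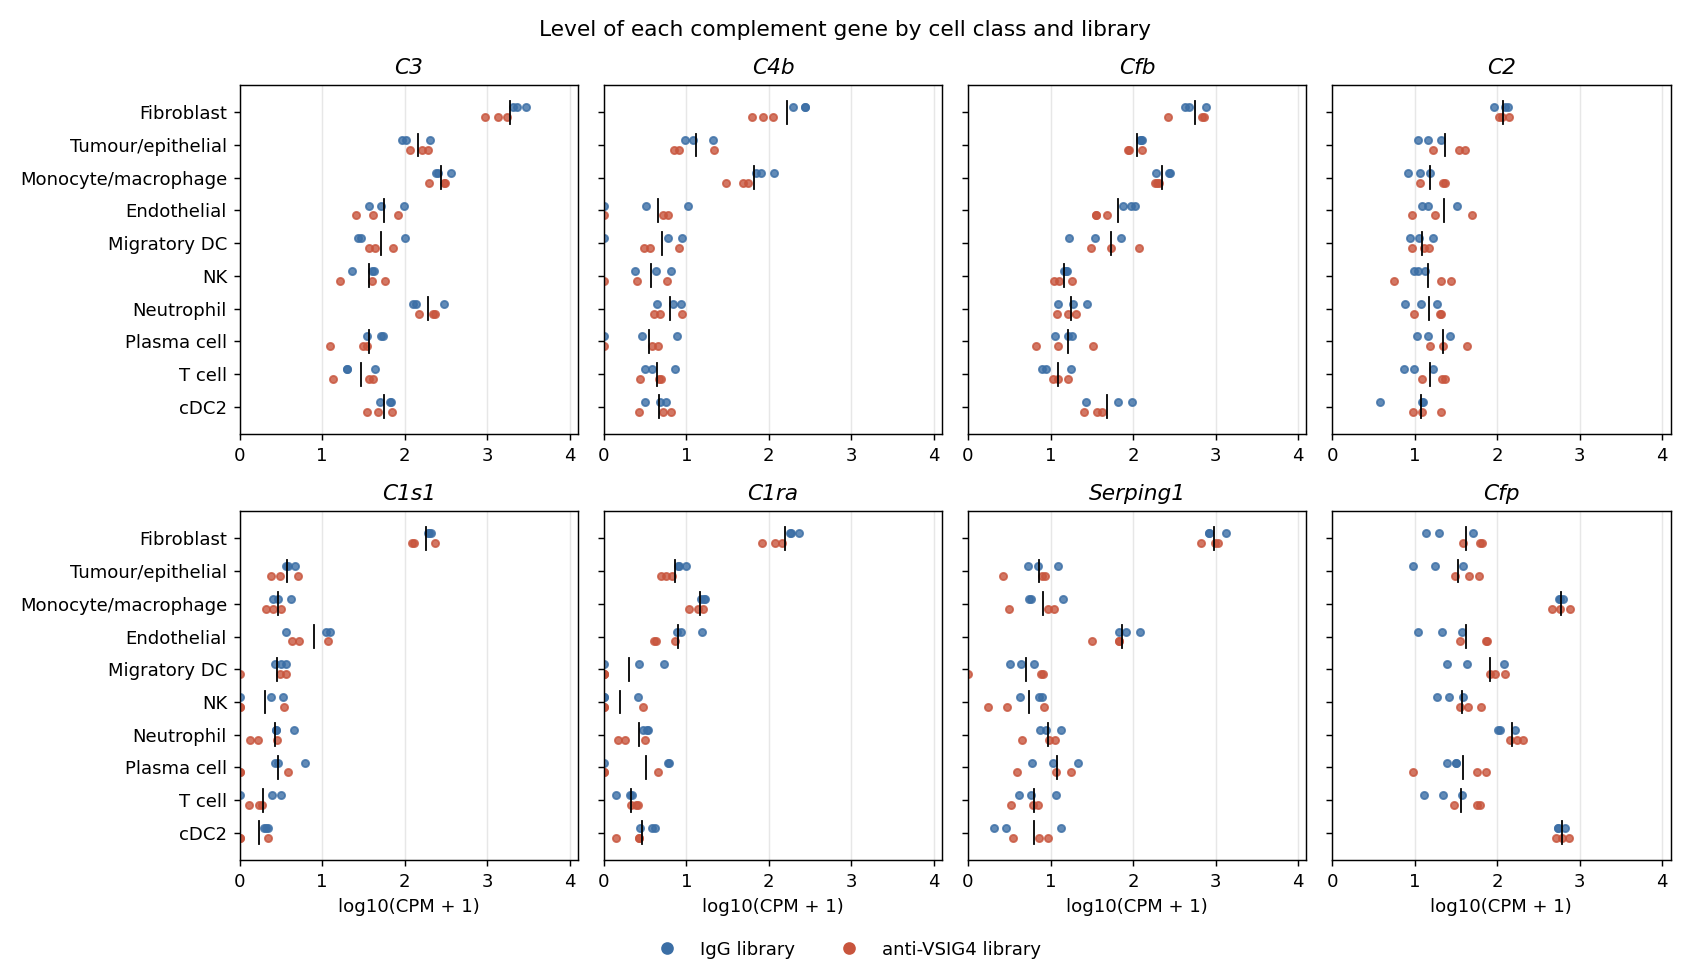
Level of each of the 8 genes by cell class and library (CPM on a log axis). Each point is 1 of 6 libraries, and fibroblasts lie above the other classes for every gene but Cfp, where cDC2 and macrophages are highest.

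Because macrophages outnumber fibroblasts, the class with the highest level often did not hold most of the UMIs. Fibroblasts held 82.7% of Serping1 UMIs, 79.2% of C1s1 and 48.9% of C1ra, against 3.86% of all UMIs. Macrophages held 73.4% of Cfp UMIs, 63.4% of C4b, 57.0% of Cfb, 39.1% of C3, 35.1% of C1ra and 25.4% of C2. They held 33.4% of all UMIs, so their share of C1ra was near that value and their share of C2 below it. Fibroblasts held the next largest share of C3 at 33.1%, C4b at 21.7% and C2 at 23.1%. These shares pool both groups, and for C3 the order turned between them. Fibroblasts held 45.3%, 39.9% and 43.5% of C3 UMIs and macrophages 34.9%, 33.3% and 22.4% in IgG 1, 2 and 3, while in anti-VSIG4 1, 2 and 3 fibroblasts held 20.3%, 23.8% and 17.2% and macrophages 49.1%, 49.99% and 51.5%. Tumour cells held 16.8% of C2, 16.4% of Cfb, 9.47% of C3 and 6.04% of C4b UMIs, each below their 17.7% of all UMIs. The cDC2 held 10.7% of Cfp UMIs, against 4.66% of all UMIs. Endothelial cells held at most 3.40%, reached for Serping1.

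For some of the genes the fibroblast share of UMIs also differed between the groups. For C4b it averaged 27.2 ± 1.52% in IgG against 11.7 ± 1.86% in anti-VSIG4 tumours, and for C3 42.9 ± 2.74% and 20.4 ± 3.32%. For C1ra it was 56.8 ± 2.77% and 36.4 ± 6.05%, with the macrophage share at 26.0 ± 5.23% and 50.4 ± 5.14%. The groups did not overlap for any of these 4 shares, and an exact two-sided permutation test gave p = 0.1 for each, the smallest that 3 against 3 libraries allow. How many of all genes have shares that stand apart in this way is not given here. Whether these 4 go beyond that background was therefore not tested, and the group shares of Cfb, C2 and Cfp are not given. The fibroblast share of Serping1 was 83.2 ± 3.92% and 82.0 ± 5.84% (p = 0.8 by the same exact test) and that of C1s1 79.2 ± 2.75% and 78.9 ± 3.52% (p = 1.0). Fibroblasts were 2.91%, 1.74% and 2.41% of cells in IgG 1, 2 and 3 and 0.906%, 2.82% and 0.797% in anti-VSIG4 1, 2 and 3. In sums over whole libraries, fewer cells of a type and less RNA per cell cannot be told apart.

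**Figure D2:**
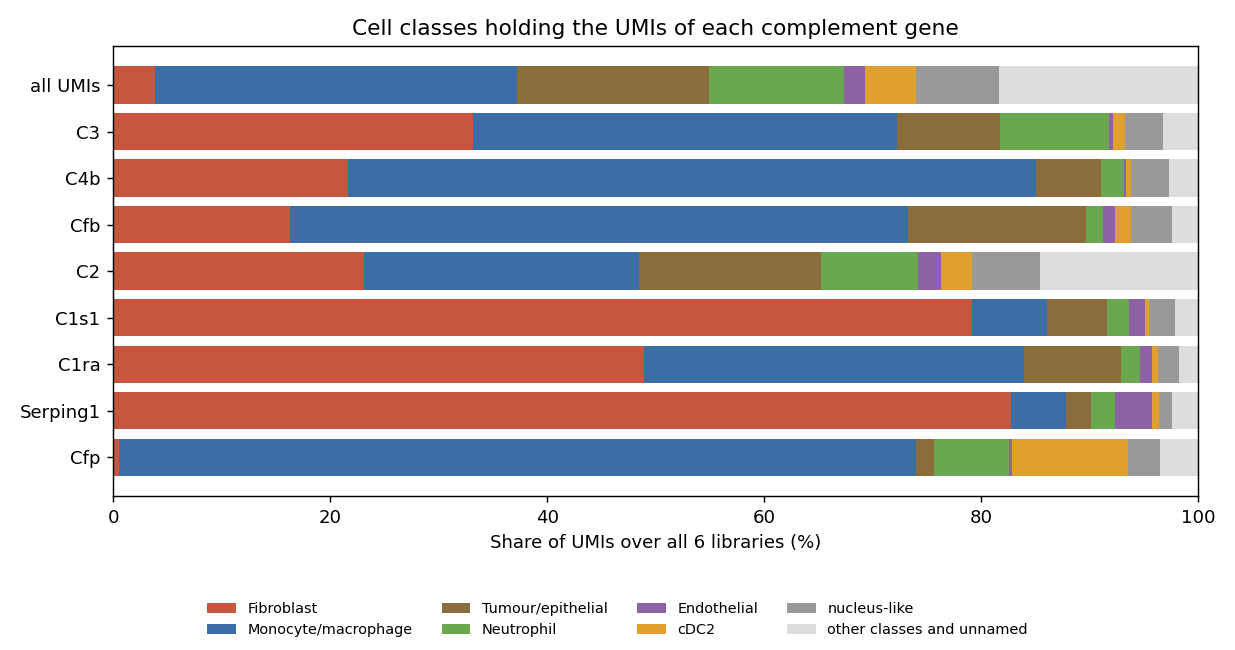
Share of each gene's UMIs held by each cell class (percent of the gene's UMIs over all kept cells, 6 libraries pooled). Serping1 and C1s1 lie mostly in fibroblasts, C4b, Cfb and Cfp mostly in macrophages.

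Free RNA in droplets can put a few UMIs of any gene into any cell, so detection was set beside T cells, a class with low levels of all 8 genes. T cells can make some C3 and properdin, so for C3 and Cfp their share can hold expression as well as free RNA. Each cell was thinned to 1000 UMIs, and no kept cell was shallower. C3 was then seen in 50.6% of fibroblasts, 19.2% of macrophages, 9.17% of tumour cells and 3.12% of T cells. Serping1 was seen in 46.5% of fibroblasts, 6.83% of endothelial cells, 0.809% of macrophages and 0.595% of T cells. For Cfb the shares were 25.6% of fibroblasts, 14.7% of macrophages, 9.40% of tumour cells, 6.17% of endothelial cells and 1.29% of T cells. C1s1 was seen in 14.0% of fibroblasts, 0.229% of macrophages and 0.0992% of T cells, and C1ra in 9.63%, 1.20% and 0.132%. For C4b the shares were 11.1%, 4.81% and 0.331%, and for C2 10.2%, 1.79% and 1.41%. Cfp was seen in 43.1% of cDC2, 37.8% of macrophages, 4.1% of fibroblasts and 4.18% of T cells, so the fibroblast share of Cfp was near that of T cells. Before thinning, the fibroblast shares were 75.5% for C3, 76.5% for Serping1, 55.2% for Cfb, 44.5% for C1s1, 43.4% for C2, 38.6% for C1ra, 31.3% for C4b and 22.8% for Cfp, at median depths of 4803 UMIs per fibroblast, 4511 per macrophage and 3018.5 per T cell.

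UMIs of the genes were also set beside those of the fibroblast collagens Col1a1, Col1a2 and Col3a1 in the same class. How much of a gene's RNA was carried over from other cells was not tested. Per 100 UMIs of these collagens, C1s1 was 0.944 in fibroblasts and 0.805 in macrophages. C3 was 10.4 in fibroblasts and 120 in macrophages, and C1ra 0.860 and 6.00. C2 was 0.614 in fibroblasts, 6.55 in macrophages and 7.36 in T cells. C4b was 0.949 in fibroblasts, 27.0 in macrophages and 1.62 in T cells. Cfb was 2.82 in fibroblasts, 96.0 in macrophages and 68.7 in tumour cells, and Serping1 was 4.97 in fibroblasts, 2.99 in macrophages and 30.8 in endothelial cells.

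Near-identical copies of 3 of the genes lie in the mouse genome, and how the authors' counting treated reads that match both was not given in the sources used here. Of the 50-base windows of the longest GENCODE M21 transcript, 35.2% of C4b also lie in C4a, 24.3% of C1s1 in C1s2 and 48.0% of C1ra in C1rb. Among the last 500 windows, at the 3′ end, the shares were 38.4%, 16.2% and 27.0%. The copies were counted at 3 UMIs for C4a, 3 for C1s2 and 9 for C1rb over all fibroblasts, against 1549 for C4b, 1542 for C1s1 and 1404 for C1ra. C4a reached 130 UMIs in tumour cells, beside 432 of C4b, so the tumour cell values of C4b are uncertain.

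Within fibroblasts, sub-clusters were built without complement genes and named from fixed markers. The inflammatory/universal-type sub-cluster, led by Clec3b, Dpt and Pi16, held 194 cells (92, 20 and 30 in IgG, 14, 32 and 6 in anti-VSIG4), which are 21.5% of fibroblasts and 26.1% of their UMIs. It held 80.2% of fibroblast C4b UMIs, 61.9% of C3, 57.8% of C1ra, 54.9% of Cfb, 48.5% of Serping1, 45.1% of C1s1 and 33.3% of C2. Cfp, at 18.2%, was the only one of the 8 below the sub-cluster's share of UMIs. The mesothelial-like sub-cluster (211 cells, led by Lgals7, Slpi and Upk3b, with Msln among its genes) had intermediate C3, 713 to 2872 CPM per library. The contractile sub-cluster (89 cells) had little C3, 95.8 to 569 CPM, and little C4b, 0 to 42.6 CPM, but Serping1 between 915 and 2058 CPM. In the pericyte-like sub-cluster (39 cells) C3 was 0 to 117 CPM, C4b 0 to 38.0 CPM and Serping1 340.1 to 1303 CPM. Pooled over the libraries, Serping1 was thus spread over the fibroblast subtypes, while most C4b and C3 UMIs lay in the inflammatory/universal type. This did not hold in anti-VSIG4 3, where that sub-cluster held 27.8% of C4b and 17.2% of C3 UMIs. Its share of C3 UMIs averaged 65.9 ± 19.1% in IgG against 43.0 ± 24.3% in anti-VSIG4 (p = 0.3, exact permutation test, two-sided). In anti-VSIG4 3 an unnamed sub-cluster had C3 at 2410 CPM and C4b at 199.6 CPM, above the 1758 and 177 CPM of the inflammatory/universal type. That unnamed sub-cluster (171 cells) had Pi16 and Dpt, inflammatory/universal markers, among its leading genes, and its top score was for cycling markers. It was 22.1%, 9.15% and 3.04% of fibroblast cells in IgG 1, 2 and 3 and 52.3%, 25.7% and 24.1% in anti-VSIG4 1, 2 and 3. It averaged 3.78 ± 3.06% of fibroblast C4b UMIs in IgG and 28.4 ± 8.95% in anti-VSIG4. For C3 these shares were 4.62 ± 1.59% and 24.5 ± 7.12%, and for all UMIs 11.8 ± 7.58% and 29.6 ± 17.4%. The sub-clusters are descriptions, and 4 of them, the one above included, stayed unnamed. Another mesothelial-like one held 18 of its 19 cells in IgG 3, and no sub-cluster had 10 cells in every library.

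**Figure D3:**
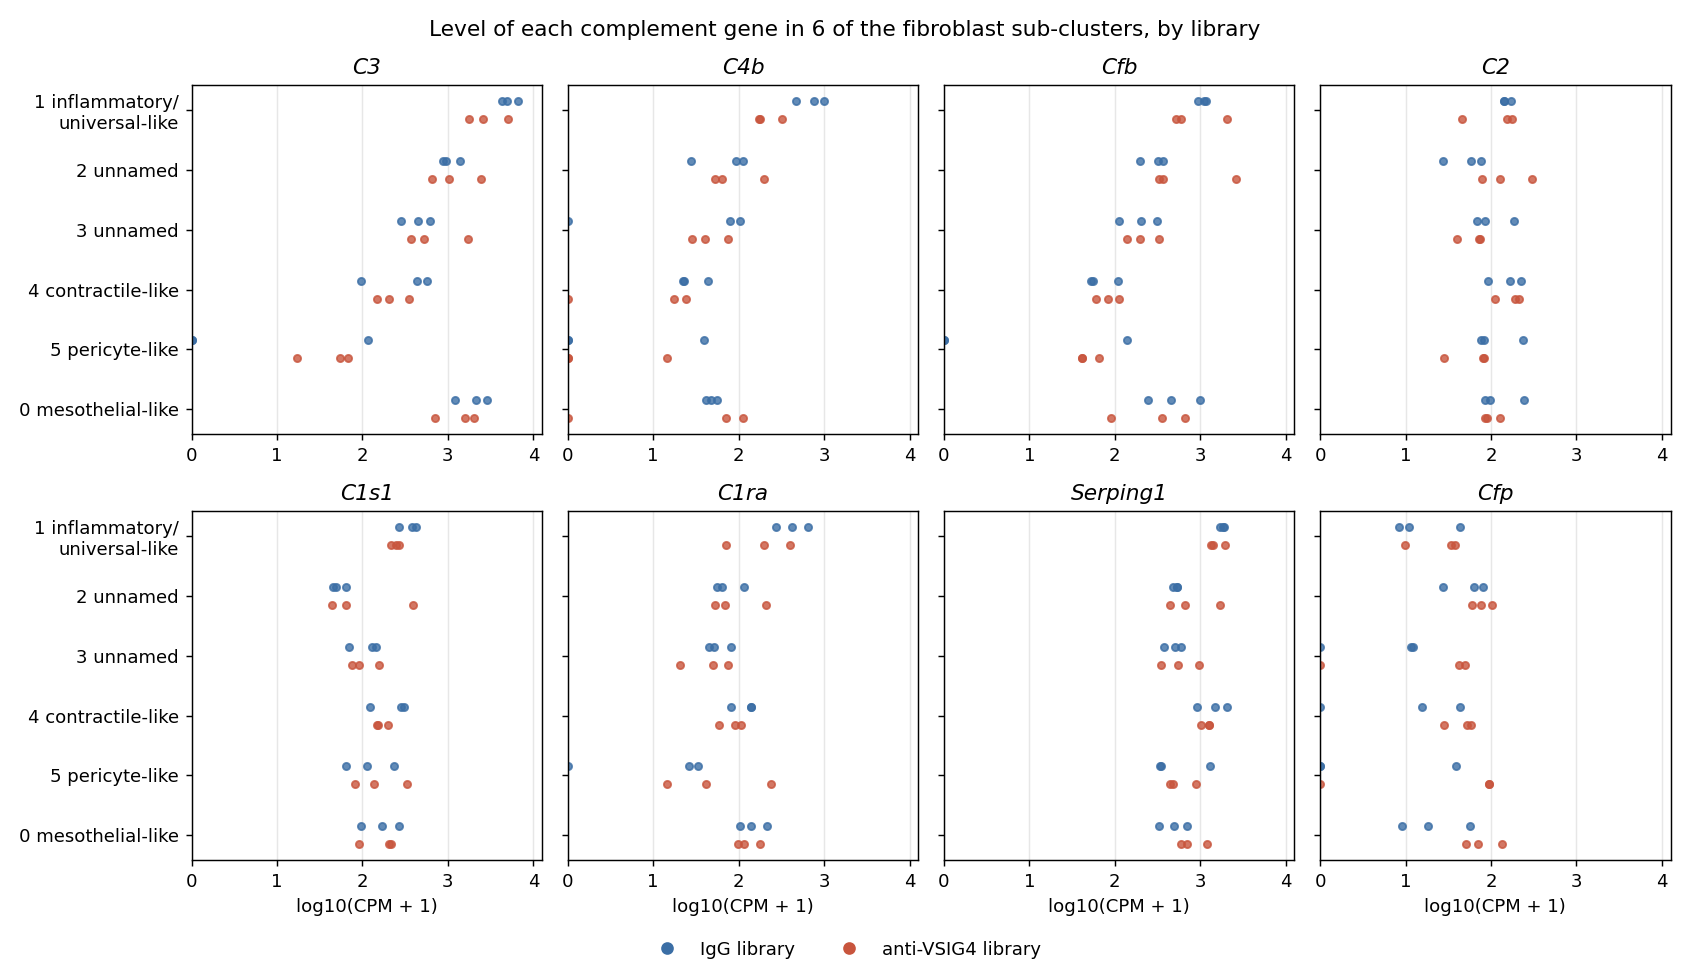
Level of each gene in the fibroblast sub-clusters by library (CPM, UMIs scaled to the sub-cluster's total). The inflammatory/universal sub-cluster has the highest C4b and C3 in every library but anti-VSIG4 3, and the contractile and pericyte-like cells have Serping1 with little C3.

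The comparison of IgG with anti-VSIG4 asks whether an antibody against a macrophage receptor for C3 fragments goes with another level of the components that feed it. In fibroblasts 0 of the 8 genes passed an adjusted p of 0.05 in edgeR's quasi-likelihood test with Benjamini-Hochberg adjustment over all genes, as did 0 of 9615 genes tested (0.0%). At an unadjusted p under 0.05, 3 of the 8 passed, all lower in anti-VSIG4, beside 6.12% of all genes in either direction. In 3 of the 8, every anti-VSIG4 library was below every IgG library, beside 5.08% of all genes. Of the 8, 7 had a log2 change below 0, and their median was -0.27, beside 0.005 over all genes tested.

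C4b had the largest log2 change of the 8 in fibroblasts. It was 273, 272 and 198 CPM in IgG 1, 2 and 3 and 110.4, 62.0 and 84.2 CPM in anti-VSIG4 1, 2 and 3. Every IgG library was above every anti-VSIG4 library, with means of 248 ± 43.2 and 85.5 ± 24.2 CPM. The log2 change was -1.59 ± 0.27 and did not pass (unadjusted p = 9.14e-05, adjusted p = 0.290 in edgeR). DESeq2 gave an adjusted p of 4.24e-04 for it, with 1 of the 8 genes called beside 0.198% of all genes. Within the libraries with few nucleus-like cells (1 IgG and 2 anti-VSIG4) the log2 change was -1.73 (edgeR adjusted p = 7.28e-05, 0.865% of genes called), and within the other 3 (2 IgG and 1 anti-VSIG4) it was -1.54 (0.00565, 2.01% called). With the mesothelial-like, pericyte-like and T-cell-rich sub-clusters left out, it was -2.13 (0.0123, 0.303% called), a call lost without IgG 2 (0.0741) or without anti-VSIG4 2 (0.0762). All these calls were of C4b alone among the 8. A group with 1 library is there assumed to vary like the other.

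The C4b difference was smaller among fibroblasts with no UMI of Ptprc, the pan-leukocyte gene. These were 693 of the 903 cells, with a median of 3947 UMIs per cell beside 10101.5 in the other 210. C4b was 245, 186 and 148 CPM there in IgG 1, 2 and 3 and 195, 86.8 and 95.2 CPM in anti-VSIG4 1, 2 and 3. Here the groups overlapped through anti-VSIG4 1, and the log2 change was -0.69 ± 0.34 (edgeR adjusted p = 0.978). In the fibroblasts with a Ptprc UMI, C4b was 314, 461 and 369 CPM in IgG against 84.8, 27.6 and 62.6 CPM in anti-VSIG4. Whether these are fibroblasts joined to a leukocyte in 1 droplet was not tested. The summed level of the 10 monocyte/macrophage markers in fibroblasts, all 10 of which averaged higher in anti-VSIG4, ranged from 770 to 882 CPM in IgG and from 975 to 1887 CPM in anti-VSIG4, and its part in the C4b result was not tested.

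C3 in fibroblasts was 2988, 2314 and 2051 CPM in IgG 1, 2 and 3 and 1757, 942 and 1351 CPM in anti-VSIG4 1, 2 and 3. The groups did not overlap, and the log2 change was -0.91 ± 0.26 (edgeR, unadjusted p = 0.00497, adjusted p = 0.574). C1ra was 187, 231 and 181 CPM in IgG against 141, 81.5 and 119 CPM in anti-VSIG4, again without overlap, with a log2 change of -0.86 ± 0.25 (edgeR adjusted p = 0.574). These 2 and C4b are the 3 whose groups stood apart. Within the few-nucleus libraries the log2 change was -1.20 for C3 and -0.81 for C1ra, and within the other 3 it was -0.75 and -0.84.

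The remaining fibroblast genes overlapped between the groups. Serping1 was 1321, 824 and 835 CPM in IgG against 1061, 663 and 973 CPM in anti-VSIG4 (log2 change -0.19 ± 0.26, edgeR adjusted p = 0.942). C1s1 was 204, 191 and 193 CPM in IgG against 121, 129 and 229 CPM in anti-VSIG4, so that anti-VSIG4 3 lay above all IgG libraries (-0.34 ± 0.26, edgeR adjusted p = 0.911). Cfb was 767, 420 and 471 CPM in IgG against 686, 268 and 732 CPM in anti-VSIG4 (-0.03 ± 0.37, edgeR adjusted p = 0.995). C2 was 134, 122 and 90.8 CPM in IgG against 137, 105 and 113 CPM in anti-VSIG4 (-0.01 ± 0.24, edgeR adjusted p = 0.996). The signs of the Serping1, Cfb and C2 changes turned with IgG 1 left out, to 0.078, 0.29 and 0.11. Cfp, seen in fibroblasts about as often as in T cells, was 50.5, 18.5 and 12.9 CPM in IgG against 64.1, 60.2 and 37.4 CPM in anti-VSIG4 (0.95 ± 0.48, edgeR adjusted p = 0.861).

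Fibroblast subtype markers moved with these differences, and their part in them was not tested. In the fibroblast class the 12 inflammatory/universal markers all averaged lower in anti-VSIG4, with summed levels of 4454 to 5867 CPM in IgG against 2006 to 3681 CPM in anti-VSIG4. The 10 contractile markers all averaged higher, at 3294 to 3867 and 5568 to 6797 CPM. The 6 interferon markers all averaged lower, at 1150 to 1289 and 265 to 577 CPM. The 10 tumour markers all averaged lower, at 316 to 1360 and 229 to 309 CPM. So did the 8 mesothelial markers, at 123 to 711 and 67.0 to 251 CPM, with overlap. The 7 pericyte and 5 cycling markers all averaged higher, also with overlap. The mesothelial-like sub-cluster of 211 cells was 10.1%, 50.7% and 37.8% of fibroblast-class cells in IgG 1, 2 and 3. It was 4.65%, 7.65% and 24.1% in anti-VSIG4 1, 2 and 3.

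Inside the inflammatory/universal sub-cluster C4b was 472, 989.6 and 770.2 CPM in IgG 1, 2 and 3 and 321, 174 and 177 CPM in anti-VSIG4 1, 2 and 3. The groups did not overlap (exact two-sided permutation p = 0.1, the smallest possible). Few cells carried these values. In IgG 2, 1 of 20 cells gave 39.7% of 393 C4b UMIs, and in anti-VSIG4 3, 1 of 6 cells gave all 20. Cells with a C4b UMI were 76.1%, 70.0% and 76.7% of the sub-cluster in IgG against 64.3%, 43.8% and 16.7% in anti-VSIG4, at unequal depths. C1s1 was 266, 423 and 374 CPM in IgG against 243, 264 and 212 CPM in anti-VSIG4, also without overlap, but overlapped with coarser sub-clustering. These were 2 of the 8 genes, beside 6.26% of all genes tested in this sub-cluster, and among cells with no Ptprc UMI both overlapped. C3 overlapped, at 4901, 6527 and 4327 CPM in IgG against 5034, 2593 and 1758 CPM in anti-VSIG4, and so did Cfb, C2, C1ra, Serping1 and Cfp. The sub-cluster's share of fibroblast C4b UMIs was 86.9 ± 2.62% in IgG against 47.2 ± 19.4% in anti-VSIG4 (p = 0.1 by the same exact test). Its share of all fibroblast UMIs was 32.3 ± 16.1% and 17.7 ± 4.88% (exact p = 0.2). Within these cells too, 11 of the 12 inflammatory/universal markers averaged lower in anti-VSIG4, at summed levels of 8814 to 12094 CPM in IgG against 4387 to 6620 CPM in anti-VSIG4.

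**Figure D4:**
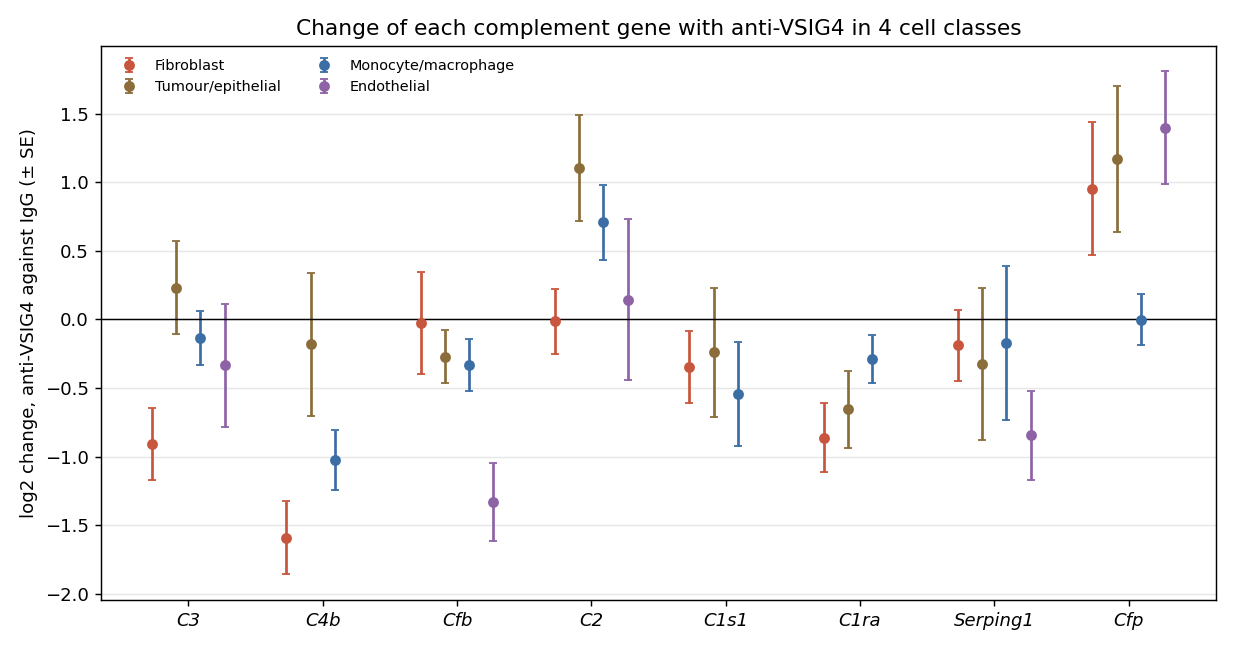
Log2 change of each gene, anti-VSIG4 over IgG, by cell class (points, edgeR; bars, approximate standard errors). The changes of C4b in fibroblasts (-1.59) and macrophages (-1.03) and of Cfb in endothelial cells (-1.33) lie below 0 by more than their standard errors. Other changes also exceed theirs, among them C3 and C1ra in fibroblasts, below 0, and C2 in tumour and Cfp in endothelial cells, above 0. None of these genes passed an adjusted p of 0.05.

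In macrophages 0 of the 8 genes passed in edgeR, as did 0 of 13042 genes tested (0.0%). At an unadjusted p under 0.05, 2 of the 8 passed, C4b lower and C2 higher, beside 4.03% of all genes. C4b was 114, 68.1 and 79.4 CPM in IgG 1, 2 and 3 and 54.2, 47.3 and 29.1 CPM in anti-VSIG4 1, 2 and 3. The groups did not overlap, as in 3.63% of all genes in this direction, and C4b was the only one of the 8. The log2 change was -1.03 ± 0.22 (edgeR, unadjusted p = 0.000892, adjusted p = 0.684). DESeq2 called C4b alone of the 8 (adjusted p = 0.0183, 0.091% of genes called). Within the few-nucleus libraries its log2 change was -1.14 (edgeR adjusted p = 0.0318, 0.198% of genes called), and within the other 3 it was -1.29 (1.44e-07, 2.39% called).

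C2 in macrophages was 14.3, 10.5 and 7.31 CPM in IgG against 22.4, 21.0 and 10.7 CPM in anti-VSIG4, and the groups overlapped (log2 change 0.71 ± 0.27, edgeR adjusted p = 1.00). Cfp was 625, 558 and 578 CPM in IgG against 573, 762 and 463 CPM in anti-VSIG4, a log2 change of -0.00 ± 0.19. C3 was 368, 239 and 252 CPM in IgG against 296, 306 and 193 CPM in anti-VSIG4 (-0.14 ± 0.20), and Cfb 269, 189 and 279 CPM in IgG against 196, 185 and 208 CPM in anti-VSIG4 (-0.33 ± 0.19). C1ra ranged from 9.70 to 15.8 CPM, Serping1 from 2.12 to 13.1 CPM and C1s1 from 1.06 to 3.20 CPM over the 6 libraries, all with overlap.

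Macrophage C4b was itself uneven. It averaged 174 ± 82.9 and 126 ± 45.1 CPM (IgG and anti-VSIG4) in the cluster led by Ccl8, Apoe and Pf4 and 177 ± 57.7 and 113 ± 46.3 CPM in the one led by Saa3 and Arg1. The clusters led by Arg1, Apoe and Pf4 and by H2-Ab1 and Cd74 had 31.1 ± 14.1 and 25.2 ± 5.76 CPM, and 37.2 ± 18.3 and 28.0 ± 12 CPM. The groups overlapped in all 4 clusters, with the anti-VSIG4 mean below the IgG mean in each. The part of the cluster mix in the difference of the whole class was not tested. The Ccl8 cluster was 28.6%, 14.8% and 12.6% of macrophages in IgG against 15.3%, 16.8% and 9.84% in anti-VSIG4, and the Saa3 cluster 1.88%, 25.9% and 16.7% in IgG against 0.994%, 2.27% and 2.60% in anti-VSIG4. The Ccl8 cluster gave 44.7% and the Saa3 cluster 21.7% of macrophage C4b UMIs. C3 stood apart in the H2-Ab1 cluster alone, at 351, 207 and 211 CPM in IgG against 184, 186 and 176 CPM in anti-VSIG4. That separation is picked from many looks, over the complement genes and the 4 clusters. How many of all genes stand apart in the H2-Ab1 cluster is not given here, so no conclusion is drawn from it.

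**Figure D5:**
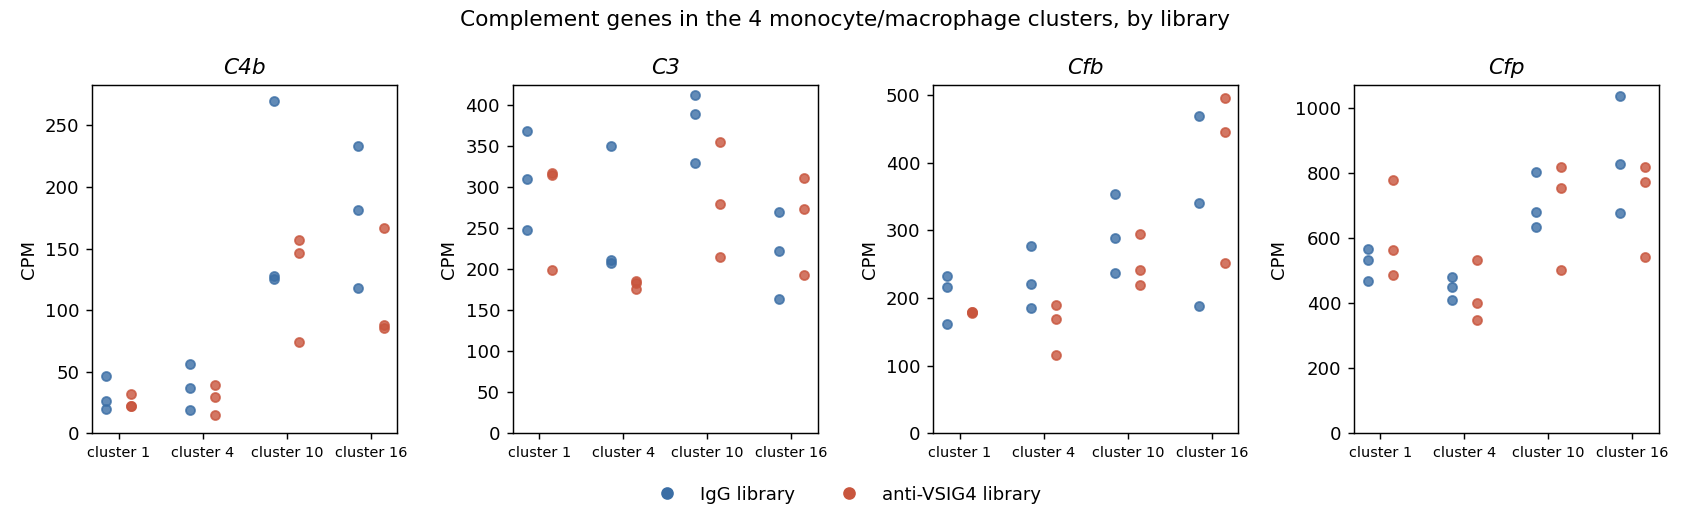
Level of C4b, C3, Cfb and Cfp in the 4 macrophage clusters by library (CPM, UMIs scaled to the cluster's total). C4b is highest in the clusters led by Ccl8 and by Saa3, and IgG and anti-VSIG4 libraries overlap for C4b in each cluster.

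In tumour cells 0 of the 8 genes and 0 of 12011 genes tested (0.0%) passed in edgeR, and at an unadjusted p under 0.05 C2, higher, and C1ra, lower, passed, beside 4.01% of all genes. C2 was 19.8, 13.5 and 9.98 CPM in IgG 1, 2 and 3 and 40.2, 33.2 and 15.8 CPM in anti-VSIG4 1, 2 and 3, and the groups overlapped through anti-VSIG4 3 (log2 change 1.10 ± 0.38, edgeR adjusted p = 0.999). C1ra was 8.90, 7.21 and 6.91 CPM in IgG against 3.91, 5.75 and 4.64 CPM in anti-VSIG4. It was the only one of the 8 without overlap, as are 4.8% of all genes in this direction (-0.65 ± 0.28, edgeR adjusted p = 0.999). All 8 mesothelial markers, of which Krt19 is also a tumour marker, averaged lower in anti-VSIG4 tumour cells too. Their summed levels were 2431 to 3118 CPM in IgG and 2183 to 2351 CPM in anti-VSIG4. All 10 tumour markers also averaged lower, at 12780 to 19451 and 10864 to 16209 CPM, with overlap. The part of either list in the C1ra values was not tested. C3 was 202, 92.5 and 102 CPM in IgG against 113, 188 and 160 CPM in anti-VSIG4, and Cfb 123, 121 and 126 CPM in IgG against 86.5, 88.1 and 128 CPM in anti-VSIG4. A cluster of 68 of these cells, led by Lcn2 and Krt8, had C3 between 1149 and 5998 CPM and C4b between 25.8 and 483 CPM. In the other 2592 tumour cells the log2 change of C3 was -0.13, beside 0.23 for the class.

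In endothelial cells 5 of the 8 genes had enough UMIs to be tested, and C4b (12 UMIs), C1s1 (29) and C1ra (33) did not. None of the 5 passed in edgeR, beside 1 of 6608 genes (0.0151%), and at an unadjusted p under 0.05 Cfb, Serping1 and Cfp passed, beside 4.86% of all genes. Cfb was 93.7, 104 and 74.5 CPM in IgG 1, 2 and 3 and 46.8, 35 and 34.5 CPM in anti-VSIG4 1, 2 and 3. Every IgG library was above every anti-VSIG4 library, as for 2.75% of all genes, and the log2 change was -1.33 ± 0.29 (edgeR adjusted p = 0.243, DESeq2 0.507). Serping1 was 82.2, 122 and 66.7 CPM in IgG against 65.9, 67.0 and 31.2 CPM in anti-VSIG4 (-0.84 ± 0.33, edgeR adjusted p = 0.887). Cfp was 36.3, 20.6 and 10.01 CPM in IgG against 74.4, 71.6 and 34.5 CPM in anti-VSIG4 (1.40 ± 0.41, edgeR adjusted p = 0.714). Here the summed level of the 10 monocyte/macrophage markers, all 10 higher in anti-VSIG4, was 329 to 780 CPM in IgG against 1492 to 2932 CPM in anti-VSIG4. That of the 9 neutrophil markers, all 9 higher, was 288 to 1501 and 1790 to 4981 CPM, and the part of either list in the Cfp values was not tested.

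Over all kept cells 0 of the 8 genes and 0 of 17976 genes (0.0%) passed in edgeR, and 0 of the 8 passed at an unadjusted p under 0.05, beside 7.68% of all genes. C4b was 66.2, 37.9 and 27.9 CPM in IgG 1, 2 and 3 and 26.4, 25.8 and 17.0 CPM in anti-VSIG4 1, 2 and 3 (-0.77 ± 0.39, edgeR adjusted p = 0.6). C4b, C1s1 and C1ra were lower in every anti-VSIG4 library than in every IgG library, as were 12.5% of all genes. The log2 change was -0.66 ± 0.37 for C1s1 and -0.53 ± 0.27 for C1ra, and the latter was 0.019 without the fibroblast class. Cfp was 324, 228 and 135 CPM in IgG against 305, 377 and 285 CPM in anti-VSIG4 (0.65 ± 0.39, edgeR adjusted p = 0.601), while in cDC2, a main source, it was 653, 544 and 539 CPM in IgG against 613, 742 and 518 CPM in anti-VSIG4 (0.12 ± 0.18).

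Whether the change in fibroblasts differed from that in another class was tested in joint edgeR fits. Against tumour cells, macrophages and endothelial cells, 0 of the 8 genes passed, beside 0.0493%, 0.0226% and 0.0% of all genes. The largest differences in log2 change were -1.03 ± 0.27 for C2 (adjusted p = 0.298) and -1.19 ± 0.42 for C3 (0.725) against tumour cells and 1.24 ± 0.35 for Cfb (0.454) against endothelial cells. For C4b the difference was -0.55 ± 0.27 against macrophages (adjusted p = 0.977), so a larger change in fibroblasts than in macrophages was not shown.

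Of 39 further complement genes, a list of receptors, other components and regulators, 15 were tested in fibroblasts and 0 passed in edgeR, and 0 of 13, 15 and 7 passed in tumour cells, macrophages and endothelial cells. In fibroblasts 10 of them averaged at least 20 CPM, among them C1qa, C1qb, C1qc, Colec12, Cd55, Cd59a, Cr1l, Clu and C5ar1. Cd55, which speeds decay of the C3-cutting enzymes on the cell's own surface, was 64.5, 37.6 and 108 CPM in IgG against 21.7, 15.2 and 26.9 CPM in anti-VSIG4, without overlap (-1.77 ± 0.36, edgeR adjusted p = 0.314). C1qc, a C1q chain typical of macrophages, was 84.6, 54.2 and 50.5 CPM in IgG against 214, 117 and 118 CPM in anti-VSIG4, also without overlap (1.20 ± 0.30, edgeR adjusted p = 0.457). The macrophage markers given above were higher in these same libraries. Clu, which encodes clusterin, averaged 327 ± 45.8 and 373 ± 248 CPM.

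As a description across 13 classes, which share libraries, the genes whose level was most like each member among 9110 compared were Svep1 for C1s1 (Pearson r = 0.98), Col14a1 for C1ra (0.96), Fstl1 for Serping1 (0.99), Ccl7 for C4b (0.95), Col5a1 for C2 (0.98), Lrp1 for C3 (0.97), Nfix for Cfb (0.94) and Plbd1 for Cfp (0.95).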

How the data were processed

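RNA was measured in single cells of 6 tumours, 1 library per mouse, and groups come from the labels. Each library came as a sparse matrix deposited by the authors, holding UMI counts for each gene in each cell. The file headers name PISA 1.0 as the program that made them. The submitters' processing notes list STAR and Seurat 4.11 without their steps, while a genome build is not given in the sources used here. No barcode in the files had under 1000 UMIs, a selection made before deposit. Genes that a matrix does not list were set to 0 in that library.

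The 8 genes, the gene lists and the markers were chosen with earlier results of these data known. The limits on cells were a minimum of 500 UMIs and 300 genes and a maximum of 20% mitochondrial UMIs. Leiden clusters (scanpy 1.11.5, leidenalg 0.10.2, resolution 1.0, 3000 variable genes, 40 principal components, 20 neighbours, seed 0) were built without the 8 genes and the 39 further complement genes. A cluster was named for the class with the top marker score, the log2 ratio to the median cluster averaged over markers (CPM plus 20). Clusters with over 15% of the median cell's UMIs in genes over 100 kb long (GENCODE M21 spans, 97.0% of UMIs matched) stayed unnamed. So did clusters whose top score was for the red cell (haemoglobin) markers, whose leading genes were mixed. Both rules were set after the data were seen. Scrublet marked 0 cells and was taken not to have worked, so no doublets were removed. Fibroblasts were clustered again at resolution 0.6.

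Sums of UMI counts over the cells of a class in a library were tested in R 4.3.3 with edgeR 4.0.16 (TMM, filterByExpr, glmQLFit, glmQLFTest), with Benjamini-Hochberg adjustment over all genes of a class at 0.05. The named-gene rule took the 8 genes in the 4 main classes, all cells and classes they rank first or second in, further complement genes of at least 20 CPM in fibroblasts, and the 3 genes most like each by Pearson correlation, of which the first is printed. One gene that the rule names is not reported here. On simulated counts with 200 changed genes, the fibroblast test (9615 genes) recovered 14.7% of the 2-fold changes and 80.9% of the 4-fold changes, and the macrophage test (13042 genes) 33.7% and 89.8%. Alternatives were DESeq2 1.42.0, RLE scaling, no filter, a replicate block, the kind of library as covariate, resolution 0.5, a mitochondrial limit of 10%, leaving out the 6% of cells that Scrublet scored highest, and each library left out. The subsets of fibroblasts, tumour cells and libraries were added after the data were seen.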

Additional observations from a re-analysis of the deposited data

How the results depend on the processing

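The class order (7 of 8 genes highest in fibroblasts) held in every setting tried for it. Of 986 values recomputed, 835 were classed as unchanged, 86 moved, 50 turned sign and 15 newly passed. For log2 changes, unchanged means the same sign and the same side of the threshold, and their size was not compared. Counts, class differences, sub-cluster ratios and shares were judged by size. The edgeR count of called genes among the 8, 0 in each main class, became 1 in fibroblasts with DESeq2, the replicate block, the library kind as covariate, the few-nucleus libraries, the many-nucleus libraries and the trimmed fibroblasts, and 2 with no filter. In macrophages it became 1 with DESeq2, no filter, the covariate and either kind of library, and with no filter it became 1 in tumour and 1 in endothelial cells. C4b was the one called in fibroblasts and macrophages, and with no filter C3 joined it in fibroblasts (adjusted p = 0.0237). Fibroblasts hold few cells per library, and 2-fold changes were mostly missed on simulated counts there.

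Among all genes, fibroblast calls rose from 0 to 41 with DESeq2, 163 with no filter, 13 with the covariate, 90 and 214 in the few- and many-nucleus libraries, 23 in trimmed fibroblasts and 1 in the inflammatory/universal cells alone. Tumour calls rose from 0 to 5, 150, 7 and 52, and macrophage calls to 23, 42, 27 and 334, with DESeq2, no filter and the 2 kinds of library, and macrophage calls to 4 with the covariate. Endothelial calls went from 1 to 6, 65, 8 and 2, and to 0 without the highest doublet scores. All-cell calls became 13 with DESeq2. With 1 library left out, calls ranged from 0 to 6 in fibroblasts, 0 to 3 in tumour cells, 0 to 16 in macrophages, 0 to 4 in endothelial cells and 0 to 135 over all cells, where 135 came without IgG 1.

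For differences between classes, no filter called 2, 0 and 1 of the 8 genes against tumour cells, macrophages and endothelial cells, and 89, 66 and 36 of all genes. RLE scaling gave 0 of all genes against macrophages. With 1 library left out, the ranges against these classes were 0 to 1, 0 to 1 and 0 of the 8, and 5 to 27, 0 to 25 and 0 to 6 of all genes.

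These log2 changes turned sign, and the cause was not tested. In fibroblasts without Ptprc, C2 was 0.30, Cfb 0.067 and Serping1 0.065. In the many-nucleus libraries fibroblast C1s1 was 0.20, C2 0.034, Cfb 0.67 and Serping1 0.18, tumour C1s1 0.65 and Cfb 0.12, and endothelial C2 -1.40 (-0.081 with the covariate). Tumour C3 was -0.46 in the few-nucleus libraries and -0.13 both in the large cluster and at resolution 0.5, and tumour C4b was 0.19 without the highest doublet scores. Macrophage Cfp was 0.11 in the few-nucleus libraries, 0.025 with no filter and 0.0049 at resolution 0.5. Without the fibroblast class, all-cell C3 was 0.23, Cfb 0.047 and C1ra 0.019. With 1 library left out, fibroblast values ranged from -0.20 to 0.11 for C2, -0.26 to 0.29 for Cfb and -0.34 to 0.078 for Serping1. Tumour values ranged from -0.79 to 0.087 for C1s1, -0.91 to 0.22 for C4b and -0.64 to 0.085 for Serping1. Macrophage values ranged from -0.23 to 0.013 for C3, -0.18 to 0.093 for Cfp and -0.53 to 0.44 for Serping1. Endothelial values ranged from -0.69 to 0.88 for C2 and -0.96 to 0.11 for C3, and all-cell values from -0.52 to 0.30 for C3, -0.22 to 0.30 for Cfb and -0.84 to 0.13 for Serping1.

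Both groups use replicate numbers 1 to 3. Libraries of numbers 1 and 3 deviated together from their group means, with correlations of 0.283 and 0.253 in fibroblasts. These were 0.270 and 0.282 in macrophages and 0.314 and 0.384 in tumour cells. Libraries of number 2 did not (-0.0226 in fibroblasts, -0.231 in macrophages, -0.231 in tumour cells). Number 1 was few-nucleus and number 3 many-nucleus in both groups, and number 2 differed in kind. Pairing by number was thus not settled, and the main fit took none. With the replicate block C4b passed in fibroblasts (adjusted p = 0.0112), the calls among the 8 were 1 in fibroblasts, those among all genes were 33 in fibroblasts, 1 in tumour cells and 8 in endothelial cells, and fibroblast C2 changed by 0.0027.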

Other observations

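Cfp, the gene of properdin, also averaged higher in anti-VSIG4 in T cells, NK cells and neutrophils, where its level is below that of cDC2 and macrophages. Whether the change differed between these classes and the main sources was not tested. In T cells it was 36.4, 21.2 and 12 CPM in IgG 1, 2 and 3 and 60.6, 55.8 and 28.8 CPM in anti-VSIG4 1, 2 and 3 (log2 change 1.10 ± 0.40, edgeR adjusted p = 0.998). In NK cells it was 24.7, 37.2 and 17.4 CPM in IgG against 43.3, 63.2 and 34.7 CPM in anti-VSIG4 (0.92 ± 0.38, edgeR adjusted p = 0.373), and in neutrophils 161, 107 and 100.05 CPM in IgG against 175, 206 and 143 CPM in anti-VSIG4 (0.59 ± 0.23, edgeR adjusted p = 0.841). The groups overlapped in all 3 classes and none passed. In T cells the summed level of the 10 monocyte/macrophage markers was 639 to 1158 CPM in IgG against 1298 to 1826 CPM in anti-VSIG4, all 10 averaging higher, and its part in the Cfp values was not tested.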
